A study of Mus musculus with 4 samples.

Results

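The 8 genes Csf1r, Mpeg1, Cd68, Laptm5, Cd14, Msr1, Marco and Itgax mark Kupffer cells, the macrophages that reside in the sinusoids of the liver, and other macrophages. They were chosen by name, with earlier results of these data known. Every probe set that the platform annotation gives to one of them was taken. This made 13 probe sets for 8 of the 8251 genes named on the array. Liver RNA came from fed female mice killed at 8 months, after 6 months on a normal diet (ND, 11% of energy from fat) or on a high-fat diet (FD, 58%). The 4 pools are called wt ND, wt FD and ko ND, of 6 livers each, and ko FD, of 4, where wt is wild type and ko is HSL-null. The HSL-null mice carried a general knockout of hormone-sensitive lipase, not one limited to a cell type, and their strain and the design of the deleted allele are not in the sources used here. The study asked what loss of this lipase in all tissues does to liver metabolism. Lipe, the gene of the lipase, had signals of 28.0 and 34.0 in the wt pools and 11.9 and 15.9 in the ko pools. The mean signal of Lipe was under the filter on signal given below. Where a pair of values is given for a genotype, ND comes first.

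Each pool was read on 1 array, an Affymetrix MG_U74Av2 oligonucleotide array, so no replicate error could be had and nothing was tested. The words "higher" and "lower" compare pools and not mice. Pooling also removes the spread between mice. The signal is a MAS5 intensity without a unit, scaled by the authors so that the 2% trimmed mean was 100.085 to 100.094 on the 4 arrays. Signals under a floor of 6.1 were raised to it before log2 was taken, a gene was represented by its brightest probe set, and genes whose mean signal reached 26.9 were kept, 4829 in all. A difference was counted at 2-fold, a log2 ratio of 1 in size. The only yardstick of error came from the 687 genes with a further kept probe set, whose log2 ratios disagreed with an SD of 0.298, pooled over the comparisons (0.257 for diet in ko to 0.317 for diet in wt). That SD leaves out error shared by a whole array and variation between mice, so a ratio beyond it has not been shown to differ between conditions. The solution lot went with genotype, 1 lot for each, and the effects of lot and genotype cannot be told apart.

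Kupffer cells descend largely from precursors seeded before birth and clear particles, dying cells and bacterial products from portal blood. Their survival depends on CSF1 and on its receptor, and their identity on transcription factors such as PU.1, the product of Spi1. Macrophages that gather in fatty tissue can take up lipid and carry the integrin CD11c, which dendritic cells carry as well. Whole liver is mostly hepatocyte RNA, so the markers below report a minor cell population. Fewer macrophages and less of a transcript per macrophage cannot be told apart in such RNA. The hepatocyte markers were bright on every array, with 17 of 17 genes kept and albumin (Alb) between 4680 and 6913, and the Kupffer cell lectin gene Clec4f was present on every array, at 572.2 and 386.7 in wt and 632.5 and 574.7 in ko. T and NK cell markers were dim, with 1 of 13 genes on the array kept.

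Of the 13 probe sets, 9 passed the filter on signal, for 7 of the 8 genes. Marco has a single probe set with a mean signal of 23.0, under the filter but above the floor on every array, and its values are given with that limit. A dim probe set of Msr1 (mean 17.8) was also under the filter. Single probe sets of Mpeg1 and Cd68 never exceeded 1.5 and 1.1, so they lay at the floor on every array and gave no ratio. The suffixes r, i, s and f on 5 of the 13 probe sets mark probes that were picked by relaxed rules or are shared with other transcripts.

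Csf1r encodes the receptor for CSF1 and IL-34 that macrophages need to live. Its signal at probe set 104354_at was 269.7 in wt ND, 201.2 in wt FD, 223.5 in ko ND and 214.6 in ko FD. The whole range was 1.34-fold, and no step between neighbouring arrays exceeded the probe-set SD. The other probe set of Csf1r, 161832_r_at, was dim and ordered the arrays differently, with 34.9 and 30.1 in wt and 42.9 and 38.4 in ko. The 2 probe sets therefore gave opposite signs for genotype on ND, -0.27 and 0.30 on the log2 scale.

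Mpeg1 encodes perforin-2, a pore-forming protein of phagocytes that acts on engulfed bacteria. Its signal at probe set 99071_at was 376.1 in wt ND, 193.1 in wt FD, 329.2 in ko ND and 338.6 in ko FD. The wt FD pool stood alone, with a gap of 0.77 in log2 to the next array, while the other 3 arrays lay within 0.19 of each other. Of the 4829 kept genes, 7.68% had a wider range over the arrays than Mpeg1.

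Cd68 encodes a heavily glycosylated protein of late endosomes and lysosomes and is widely used to stain macrophages. Its signal at probe set 103016_s_at was 144.5 in wt ND, 116.4 in wt FD, 137.7 in ko ND and 139.3 in ko FD. This was the narrowest range of the 8 genes, 1.24-fold, and 69.1% of kept genes had a wider one. The wt FD pool was again the lowest, by less than the probe-set SD.

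Laptm5 encodes a lysosomal membrane protein of blood cells that is not limited to macrophages. At its brightest probe set, 161819_f_at, the signal was 334.8 in wt ND, 169.6 in wt FD, 211.5 in ko ND and 257.0 in ko FD. At the other, 100012_at, it was 225.7 and 135.9 in wt and 133.8 and 120.1 in ko. Both put wt ND highest, but the brightest put wt FD lowest and the other ko FD. The genotype ratio on FD thus depended on the probe set, at 0.60 and -0.18 in log2.

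Cd14 encodes the co-receptor that hands bacterial lipopolysaccharide to the Toll-like receptor TLR4. Its signal at probe set 98088_at was 146.2 in wt ND, 140.7 in wt FD, 116.4 in ko ND and 154.6 in ko FD. Cd14 differed from most of the group in being lowest in ko ND and highest in ko FD. Its range was 1.33-fold, and no step between neighbouring arrays exceeded the probe-set SD.

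Msr1 and Marco encode class A scavenger receptors, trimeric surface proteins with a collagen-like stem that bind modified lipoproteins, bacteria and dust. At probe set 94792_at, Msr1 had signals of 28.6 in wt ND, 29.6 in wt FD, 43.7 in ko ND and 47.6 in ko FD. Both ko pools were above both wt pools, with a gap of 0.56 in log2 between the genotypes. Its dimmer probe set, 94140_at, lacked that pattern, with 20.5 and 14.1 in wt and 18.4 and 18.2 in ko.

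At its probe set, 102974_at, Marco had signals of 40.3 in wt ND, 7.7 in wt FD, 14.1 in ko ND and 29.9 in ko FD. The range was 5.23-fold, the widest of the group, and every step between neighbouring arrays exceeded the probe-set SD. That SD was measured on kept probe sets only, so it may not hold for Marco, which is under the filter. The wt FD value lay just above the floor of 6.1. With the floor raised to the median signal of 26.7, the log2 ratio of FD to ND shrank from -2.39 to -0.59 in wt. In ko it shrank from 1.08 to 0.16. The log2 ratio of ko to wt shrank from -1.52 to -0.59 on ND and from 1.96 to 0.16 on FD.

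Itgax encodes CD11c, the alpha chain that pairs with the beta chain encoded by Itgb2. Its signal at probe set 104308_at was 78.3 in wt ND, 30.7 in wt FD, 37.7 in ko ND and 46.3 in ko FD. The wt ND pool stood above the other 3 arrays by at least 0.76 in log2, and 2.63% of kept genes had a wider range. Its partner Itgb2 had the same order of arrays, with 118.3 and 24.7 in wt and 45.5 and 49.6 in ko.

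At the brightest probe set, 6 of the 8 genes were lowest in wt FD, and the same 6 were highest in wt ND: Csf1r, Mpeg1, Cd68, Laptm5, Marco and Itgax. Among all kept genes, wt FD was the lowest array for 36.1%, wt ND the highest for 29.9%, and both held for 15.6%. This order was noticed in the values and is a description only. Both probe sets of Csf1r were lowest in wt FD, as was the dimmer probe set of Msr1.

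The 4 genes Marco, Itgax, Laptm5 and Mpeg1 differed most between the 2 wt pools. The 250 bases before their annotated start in RefSeq (GRCm38.p6) are shown for that reason, and the genes were thus picked from their values. The table of promoters held 5 of the 8 genes, Mpeg1, Cd68, Laptm5, Marco and Itgax. Each line is on the strand of the gene, 5′ to 3′, with the base before the start at its right end. Capitals mark matches, on either strand, to GAGGAA, which holds the purine-rich core bound by PU.1, to TGANTCA, the AP-1 element, and to TATAAA, the TATA box.
Mpeg1, chr19:12460520-12460769, plus strand: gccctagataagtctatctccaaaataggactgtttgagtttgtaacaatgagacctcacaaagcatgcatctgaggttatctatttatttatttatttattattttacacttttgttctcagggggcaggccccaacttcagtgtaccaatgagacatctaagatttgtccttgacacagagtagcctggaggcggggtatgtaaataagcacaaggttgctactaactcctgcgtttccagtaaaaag
Laptm5, chr4:130913066-130913315, plus strand: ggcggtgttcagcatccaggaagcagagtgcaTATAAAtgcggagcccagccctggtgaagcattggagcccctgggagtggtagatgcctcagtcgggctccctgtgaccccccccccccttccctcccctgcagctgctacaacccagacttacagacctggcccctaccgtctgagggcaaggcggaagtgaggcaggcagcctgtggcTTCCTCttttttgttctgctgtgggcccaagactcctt
Marco, chr1:120505025-120505274, minus strand: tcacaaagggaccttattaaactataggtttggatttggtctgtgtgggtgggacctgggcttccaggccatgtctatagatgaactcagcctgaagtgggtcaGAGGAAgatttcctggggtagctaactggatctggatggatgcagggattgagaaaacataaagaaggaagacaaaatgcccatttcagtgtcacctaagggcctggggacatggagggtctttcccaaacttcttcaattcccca
Itgax, chr7:128129300-128129549, plus strand: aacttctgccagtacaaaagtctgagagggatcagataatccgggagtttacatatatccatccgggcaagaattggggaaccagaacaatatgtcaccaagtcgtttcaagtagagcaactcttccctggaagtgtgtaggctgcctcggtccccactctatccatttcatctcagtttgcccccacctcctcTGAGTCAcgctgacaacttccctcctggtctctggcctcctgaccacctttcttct

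Laptm5 had GAGGAA on the reverse strand from -38 to -33 and TATAAA from -218 to -213, Marco had GAGGAA from -146 to -141, and Itgax had TGANTCA from -56 to -50, all counted back from the start. Mpeg1 had none of the 3 motifs in this window. Cd68, whose signal hardly varied, had GAGGAA from -225 to -220 and TGANTCA from -149 to -143 and from -24 to -18. In all, 3 of the 5 windows held GAGGAA, against 23.3% of 32851 RefSeq windows of the same length, 2 held TGANTCA, against 6.75%, and 1 held TATAAA, against 12.4%. These are matches of letters, and no motif was shared by all of Marco, Itgax, Laptm5 and Mpeg1.

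On ND, the ko pool had lower signals than the wt pool for 7 of the 8 genes, with Msr1 the exception. Marco was 2.86-fold lower, a log2 ratio of -1.52, and Itgax 2.08-fold lower, at -1.05. Laptm5 had -0.66 (and -0.75 at its other probe set), Cd14 -0.33, Csf1r -0.27, Mpeg1 -0.19 and Cd68 -0.07. Msr1 was higher, at 0.61, but -0.16 at its dimmer probe set. Of the 7 kept genes 6 were below 0, where 52.6% of kept genes were, and under median scaling 5 were, as Cd68 turned to 0.06.

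A 2-fold lower signal in 2 of 8 genes stands beside 2.65% of all 8251 genes, and 1 of the 7 kept genes beside 1.08% of the 4829. Itgax passed 2-fold narrowly and missed it at -0.99, -0.92, -0.97 and -0.81 under quantile normalization, median scaling, cyclic loess and a pseudocount of 16. The 8 genes had a median log2 ratio of -0.30 and the 7 kept genes -0.27, where all kept genes had -0.02. Of the kept genes on the array, 41 had a lower ratio than Itgax and 99 a higher one than Msr1.

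Leukocyte genes as a group were lower on ND as well, with 13 of 13 kept genes below 0 and a median of -0.54, led by Cytip (-1.26), Ptprc (-0.97) and Rac2 (-0.96). Of 27 other Kupffer cell and macrophage genes, 20 were below 0, with a median of -0.23. Cd52, Cd53, Coro1a and Lcp1 are in both of these lists, so the lists are not separate groups. Itgb2 (-1.38), also counted among the integrins and partners, and the inhibitory receptor gene Pirb (-1.33) were 2-fold lower, while the Kupffer cell gene Clec4f had 0.14 and Cd5l, a secreted protein of tissue macrophages named here after its values were seen, had 0.11. Hepatocyte markers had a median of -0.23 over 17 genes, close to that of the members. Exocrine pancreas genes had -1.64 over 7 genes, and their summed signal was 967.8 in wt ND and 330.5 to 383.8 on the other arrays. The part of these other cell types in the lower macrophage markers on ND was not tested.

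**Figure D1:**
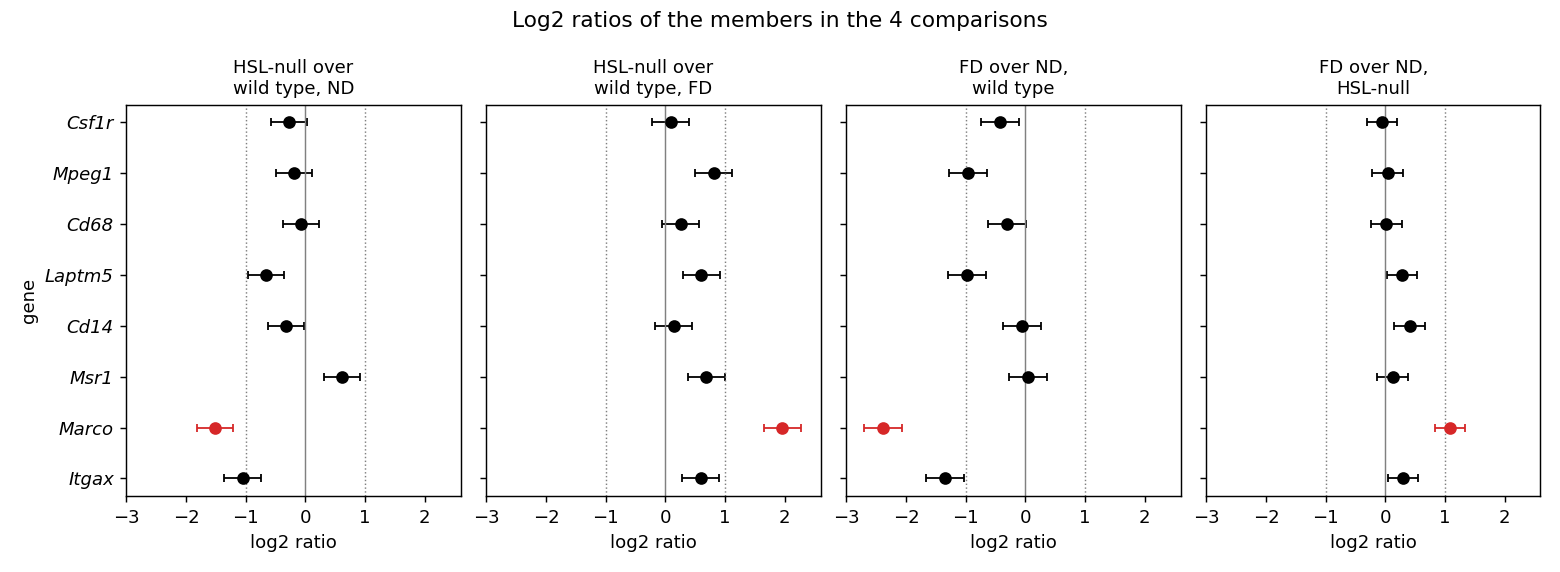
Log2 ratio of each member (x axis) in the 4 comparisons, at the brightest probe set of the gene. Bars are the SD of disagreement between kept probe sets of a gene in that comparison (0.257 to 0.317). They are not the pooled SD and not replicate error. Dotted lines mark 2-fold, and red marks Marco, under the filter, where that SD was not measured. All 8 points lie right of 0 for ko over wt on FD.

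On FD, the ko pool had higher signals than the wt pool for 8 of the 8 genes. Marco was 3.88-fold higher, at 1.96, from the near-floor signal in wt. Mpeg1 was 1.75-fold higher, at 0.81, Msr1 1.61-fold, at 0.69, and Laptm5 and Itgax had 0.60 and 0.59. Cd68 (0.26), Cd14 (0.14) and Csf1r (0.09) were within the probe-set SD. At the other probe sets Laptm5 had -0.18, Csf1r 0.35 and Msr1 0.37.

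None of the 7 kept genes reached 2-fold, where 1.86% of kept genes did, and 1 of the 8 did with no filter, where 3.36% of all genes did. The median was 0.60 over the 8 genes and 0.59 over the 7, beside 0.07 over all kept genes. It was 0.26 when a gene was given the mean of its kept probe sets, and 0.26 when only the 5 genes above the stricter signal filter were used. All of the 7 were above 0, where 58.3% of kept genes were. Under median scaling, which lowered the median of all genes from 0.07 to -0.10, 5 of the 7 were above 0, as Csf1r turned to -0.07 and Cd14 to -0.03, and 7 of 7 were above the median of all genes under either scaling. Mpeg1 ranked highest among the 7, with 187 of 4829 kept genes above it.

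In this comparison, of ko FD with wt FD, the pancreas genes had a median of 0. That value is the ratio of Prss2, whose signals of 4.6 in wt FD and 1.9 in ko FD were under the floor. The other kept pancreas genes ran from -0.57 for Ctrb1 to 0.88 for Cela1, and their part was not tested. Of the other macrophage genes 23 of 27 were above 0, with a median of 0.30, led by Itgb2 (1.01), the NADPH oxidase gene Ncf4 (0.87) and Pirb (0.78). Leukocyte genes had a median of 0.30, with 11 of 13 above 0 and Ptprc, the CD45 gene, at 1.42. Both medians of 0.30 are the ratio of the same gene, Cd52, which is in both lists. Hepatocyte markers had a median of 0.05. Genes of dendritic and antigen-presenting cells went both ways. Their median was -0.34 over 7 kept genes, with H2-Aa at -0.79, and 2 of the 7 were above 0, Irf8 (0.18) and Batf3 (0.05). Under the filter, Zbtb46 had 1.30 and Ciita -0.83. Apart from H2-Aa, these genes were named after their values were seen. Stellate cell and fibroblast genes had 0.51 over 10 genes. Their part in the higher macrophage signals was not tested.

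**Figure D2:**
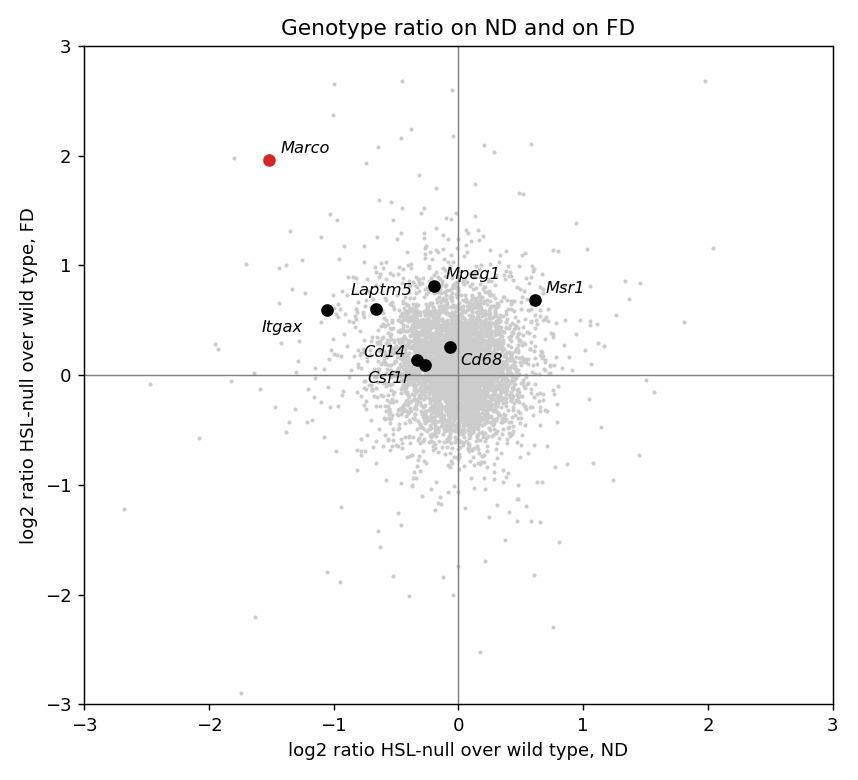
Log2 ratio of ko to wt on ND (x axis) and on FD (y axis) for the kept genes (grey) and the 8 members (black, and red for Marco, under the filter), 1 point per gene with no replicates. The members lie above the horizontal line and, except for Msr1, left of the vertical line; 3 kept genes lie outside the axes.

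In wt liver, FD went with lower signals than ND for 7 of the 8 genes. This comparison shares the wt ND array with genotype on ND and the wt FD array with genotype on FD. Marco was 5.23-fold lower, at -2.39 (the low signal is 7.7), and Itgax 2.55-fold lower, at -1.35. Laptm5 and Mpeg1 came just short of 2-fold, at -0.98 and -0.96, and the other probe set of Laptm5 had -0.73. Csf1r had -0.42, and Cd68 had -0.31, just inside the probe-set SD of this comparison, 0.317, and just beyond the pooled 0.298. Cd14 (-0.06) and Msr1 (0.05) were almost level, although the dimmer Msr1 probe set had -0.54.

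Of the 7 kept genes 6 were below 0, where 55.7% of kept genes were. Lower by 2-fold or more were 2 of the 8 genes, beside 4.08% of all genes, and 1 of the 7 kept, beside 2.36% of kept genes. The median was -0.69 over the 8 and -0.42 over the 7, where all kept genes had -0.05. Median scaling gave -0.28 for the 7, with Cd14 turned to 0.09 beside Msr1 above 0, and 6 of 7 were below the median of all genes with it and without it. Of the kept genes, 49 had a lower ratio than Itgax, 117 than Laptm5 and 124 than Mpeg1.

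Other genes of the lineage were lower in wt FD as well. Of 27 other macrophage genes, 26 were below 0, and their median was -0.57. Itgb2 had -2.26, Ncf4 -1.38 and Pirb -1.32, and Clec4f, which is particular to Kupffer cells in mouse liver, had -0.57. In the list around the CSF1 receptor, 7 of 8 kept genes were below 0, with a median of -0.28, and the ligand gene Csf1 had the lowest ratio, -0.94, from signals of 61.5 and 32.0. Spi1 had -0.38 and the C/EBP beta gene Cebpb -0.33.

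Markers of several other cell types were lower in the same comparison, but not of all. Cholangiocyte genes had a median of 0.29 over 2 kept genes and red blood cell genes 0.05 over 5. The 1 kept T and NK cell gene had 0.72. Hepatocyte markers had a median of -0.45, near the -0.42 of the 7 members, and 17 of 17 were below 0. Leukocyte genes had -0.90, with 13 of 13 below 0. Pancreas genes had -1.41. Summed over the kept genes of a list, the signals of wt ND, wt FD, ko ND and ko FD were 56002.9, 40678.0, 48286.5 and 43521.0 for hepatocytes. They were 1568.6, 954.2, 1076.0 and 1142.1 for leukocytes, and wt ND was highest and wt FD lowest in both lists. Sinusoidal endothelial genes had -0.27 over 10 genes, 4 of them above 0, and lysosomal genes, Laptm5 among them, -0.001 over 17. Their part in the lower macrophage signals was not tested.

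In ko liver, all of the genes but Marco differed by less than 2-fold between the diets. Marco was 2.12-fold higher on FD, at 1.08. It missed 2-fold under quantile normalization (0.93), median scaling (0.93), cyclic loess (0.935) and the pseudocount of 16 (0.61). With the floor at the median signal it had 0.16. Cd14 had 0.41, Itgax 0.30, Laptm5 0.28, Msr1 0.12, Mpeg1 0.04, Cd68 0.02 and Csf1r -0.06. The other probe sets of Laptm5 and Csf1r had -0.16 each and that of Msr1 -0.02. Cd14 and Marco lay beyond the pooled probe-set SD of 0.298, and Itgax and Laptm5 as well beyond the SD of this comparison, 0.257. Neither SD was measured on probe sets under the filter, such as that of Marco.

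Higher by 2-fold as deposited was 1 of the 8 genes, Marco, beside 2.27% of all genes. None of the 7 kept was, beside 0.828% of kept genes. The median of the 7 was 0.12, or -0.03 under median scaling, and 0.20 over the 8. Of the 7, 6 were above 0 as deposited, where 56.9% of kept genes were, but 3 under median scaling, 4 under cyclic loess and 5 under quantile normalization, so their direction was not settled. The other macrophage genes had a median of -0.07, with 9 of 27 above 0. Hepatocyte markers had -0.18 and leukocyte genes 0.07.

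The genotype ratio was higher on FD than on ND for 8 of the 8 genes, except that Msr1 turned to -0.19 under quantile normalization and cyclic loess and to -0.22 under median scaling. This difference of ratios, which uses all 4 arrays, was 3.47 for Marco, 1.65 for Itgax, 1.26 for Laptm5 and 1.002 for Mpeg1, all at least 2-fold. Cd14 had 0.46, Csf1r 0.36, Cd68 0.33 and Msr1 0.07. The other probe sets gave 0.58 for Laptm5, 0.52 for Msr1 and 0.05 for Csf1r. Mpeg1 was at the threshold, with 0.98 under quantile normalization and 0.70 under median scaling. Laptm5 fell to 0.96 under median scaling. With the floor at the median signal Marco fell to 0.76, under 2-fold, and with the pseudocount of 16 it had 1.86.

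Opposite signs for genotype, below 0 on ND and above 0 on FD, were seen in 7 of the 8 genes (27.7% of all genes) and 6 of the 7 kept (32.1% of kept genes), and in 3 of the 7 under median scaling (15.3%). Opposite signs for diet, below 0 in wt and above 0 in ko, were seen in 6 of the 8 (28.0%) and 5 of the 7 (33.2%), and in 2 of the 7 under median scaling (14.2%). Without suffixed probe sets, 4 of 6 kept genes had opposite signs for genotype (31.5%) and 3 of 6 for diet (32.5%). Laptm5 was then not among them in either case.

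For the difference of ratios, the 7 kept genes were above 0, where 58.3% of kept genes were. Among them, 3 reached 2-fold, beside 4.93% of kept genes, and among the 8, 4 did, beside 7.83% of all genes. Median scaling left 1 of the 7. It also turned the split over all kept genes from 238 higher and 67 lower to 119 and 209, so the background of this comparison depends on the scaling. The splits of the single comparisons moved too, from 24 higher and 52 lower to 30 and 36 for genotype on ND, from 90 and 46 to 53 and 70 on FD, from 38 and 114 to 60 and 76 for diet in wt, and from 40 and 30 to 23 and 46 for diet in ko. The median of the 7 was 0.46 as deposited and 0.17 under median scaling, in both cases 0.37 above that of all kept genes. Leukocyte genes had a median of 0.94, with 13 of 13 above 0, and the other macrophage genes 0.43, with 24 of 27.

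Groups of genes tied to the roles of the members did not all follow them. In the list of CD14 and the response to lipopolysaccharide, 8 of 15 genes on the array were kept and 4 were at the floor on every array, and the difference of ratios had a median of 0.03. Il1b, which encodes interleukin 1 beta, had signals of 53.2 and 20.0 in wt and 26.1 and 55.3 in ko liver, while Lbp, the plasma protein that delivers lipopolysaccharide to CD14, had 613.4 and 414.9 and 623.7 and 421.2. Lbp was thus lower on FD in both genotypes, at -0.56 and -0.57, unlike Cd14.

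Other scavenger receptors, 6 of 7 kept, had medians between -0.03 and 0.05 in the 4 comparisons. Cd36, a fatty acid and lipoprotein receptor, had signals of 28.1 and 36.7 in wt and 24.9 and 47.5 in ko liver, higher on FD in both, and Mrc1, the mannose receptor of macrophages and sinusoidal endothelium, named here after its values were seen, had 142.6, 139.8, 143.8 and 143.3. Lrp1, the large lipoprotein receptor of hepatocytes and macrophages, was 2-fold lower in wt FD, with 513.4 and 248.0, and had 386.5 and 372.4 in ko. Lysosomal genes had medians between -0.07 and 0.0024. The list of integrin chains and partners kept Itgb2, Itgal, Itgb7, the broadly expressed chain gene Itgb1, the ligand gene Icam1 and Fermt3, which encodes a kindlin that activates integrins. Its 6 kept genes had medians of -0.28 for genotype on ND, with 6 below 0, and 0.38 on FD, with 6 above 0. The leukocyte chain genes Itgb7 (-0.83 and 0.44) and Itgal (-0.33 and 0.34) had larger ratios than Itgb1 (-0.14 and 0.03). Itgb1 was picked for this contrast after its values were seen.

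**Figure D3:**
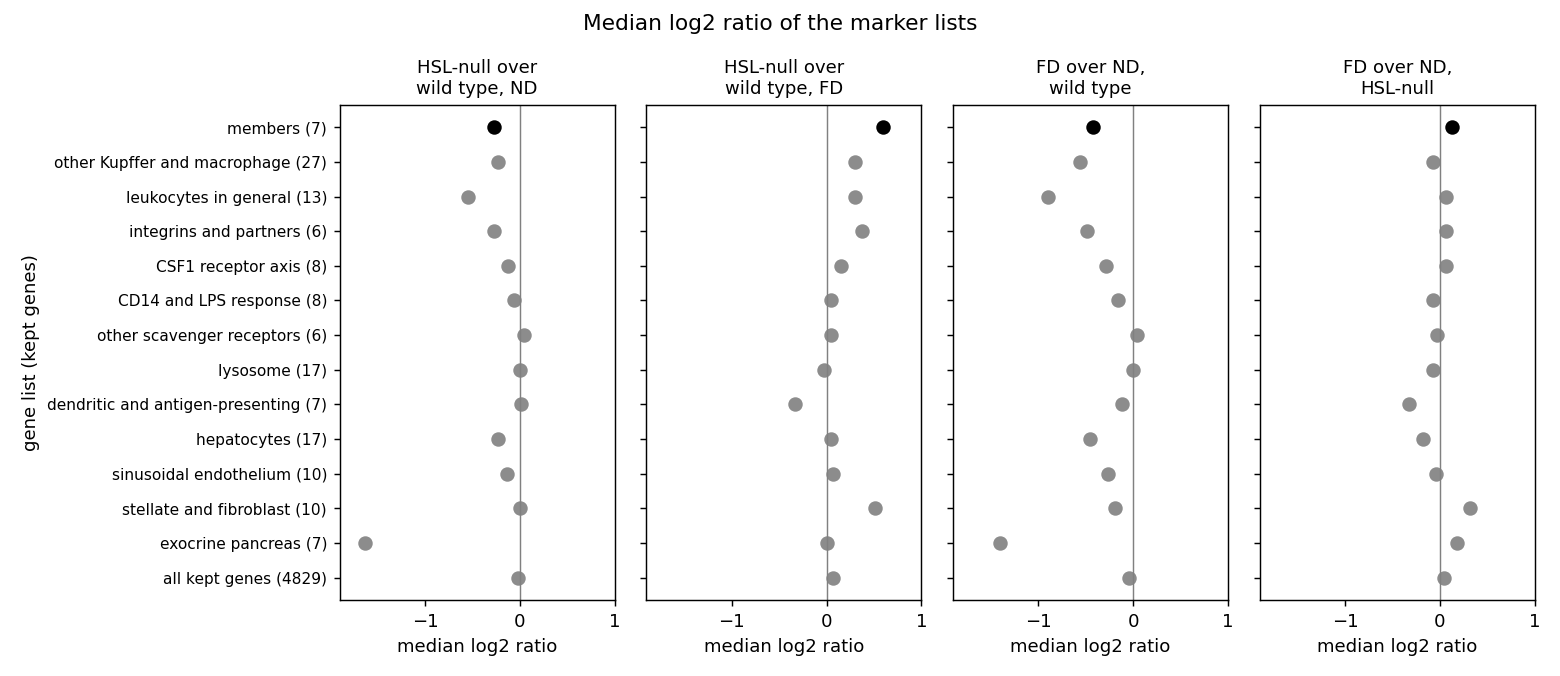
Median log2 ratio (x axis) of each marker list in the 4 comparisons, with the number of kept genes in brackets, the 7 kept members in black and other lists in grey, 1 array per group and no error bars. In wt the members' median for FD over ND, -0.42, lies near that of the hepatocyte markers, -0.45, while for ko over wt on FD it is 0.59 against 0.05. The 0.59 fell to 0.26 under the stricter filter and with the mean of a gene's kept probe sets.

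Likeness to the members was measured as the root mean square difference between log2 values over the 4 arrays after centring, among kept genes with at least as wide a range. The mean profile of the 7 kept members was nearest to Lgals8, which encodes a galectin, with a difference of 0.01 over 1421 genes compared, then to Pafah1b2 (0.02), Myh9 (0.03), Csnk2a1 (0.03) and Sox17 (0.03). Marco, the member with the widest range, had no close match among the 17 genes with a range as wide, the nearest being T2 (0.39), Ccdc186 (0.40), Plk1 (0.50), Jchain (0.59) and Chrna7 (0.78). The profile of Itgax, which has the widest range of the kept members and was added after the values were seen, was nearest to Ccnl2 (0.13 over 127 genes), followed by Cytip (0.18), Lcp2 (0.19), Ahnak (0.20) and Xist (0.20). Cytip and Lcp2 are genes of blood cells, and Lcp2 had signals of 54.1 and 17.0 in wt and 30.1 and 31.5 in ko. With 4 arrays, many genes share such an order, and the nearest ones include genes expressed in most cells.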

How the data were processed

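The table deposited by the authors holds 1 linear intensity per probe set and array, summarised with MAS5 per the submitters' processing notes, and the version is not stated in the sources used here. The deposited run settings, words and numbers of another kind with no expression value, gave 1 chip lot, 2 solution lots, 1 scan day, and the labelled diet on 4 of 4 arrays. Probe sets were named from the platform annotation: of 12422 that are not controls, 10833 had 1 gene, 396 several and 1193 none, and 10817 matched a RefSeq gene table of GRCm38.p6.

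Signals were floored at the 25th percentile (6.1), taken to log2 and kept from the median of the mean signals (26.9). The unit of comparison was the ratio of 2 arrays, called at 2-fold, with no test, since each group is 1 array, and precision is limited by this number. Steps were tested on simulated data. The members, the gene lists and the motifs were chosen with earlier results of these data known. Named genes were the members, up to 3 genes of each list with the largest ratios in a comparison, and the 5 nearest profiles; the profile was to be that of the mean and of the member with the widest range, Marco, and Itgax was added later. Lipe was named as a check of the genotype labels, and Alb and Clec4f as a check of the tissue. None of them checks the diet labels. Other genes outside the rule are named as picked once values were known. Alternatives were quantile normalization, median scaling, cyclic loess (limma 3.58.1), another floor, a pseudocount of 16, no filter or a stricter one, the mean of probe sets, and no suffixed probe sets. Python 3.11.15, numpy 2.4.6 and pandas 2.3.3 were used.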

Additional observations from a re-analysis of the deposited data

Results flagged for a closer look

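At the brightest probe set, 7 of the 8 genes had opposite signs of the genotype ratio (ko over wt, log2) on the 2 diets. The ratio was below 0 on ND and above 0 on FD, as it was for 27.7% of all genes. Of the 7 kept genes 6 had this pattern, beside 32.1% of kept genes. The difference between the diets was 3.47 for Marco (-1.52 and 1.96), 1.65 for Itgax (-1.05 and 0.59), 1.26 for Laptm5 (-0.66 and 0.60), 1.002 for Mpeg1 (-0.19 and 0.81), 0.46 for Cd14 (-0.33 and 0.14), 0.36 for Csf1r (-0.27 and 0.09) and 0.33 for Cd68 (-0.07 and 0.26). Read by diet, 6 of the 8 had lower signals on FD than on ND in wt and higher ones in ko, as did 28.0% of all genes. Of the 7 kept genes 5 did, beside 33.2% of kept genes. The 6 were Marco (-2.39 and 1.08), Itgax (-1.35 and 0.30), Laptm5 (-0.98 and 0.28), Mpeg1 (-0.96 and 0.04), Cd68 (-0.31 and 0.02) and Cd14 (-0.06 and 0.41), with the same differences. Both readings come from the same 4 values per gene. The difference for Marco fell to 0.76 with the floor at the median signal. With 1 array a group the differences were not tested, and ratios such as 0.02 and -0.06 have a sign but no measured distance from 0. Under median scaling Cd68 was above 0 on ND, at 0.06, and Csf1r and Cd14 below 0 on FD, at -0.07 and -0.03, so the genotype signs were no longer opposite for these 3. For diet, Mpeg1 (-0.12) and Cd68 (-0.14) were then below 0 in ko and Cd14 (0.09) above 0 in wt, which left Laptm5 and Itgax of the 5 kept genes. Quantile normalization and cyclic loess left 6 kept genes with opposite genotype signs and 4 with opposite diet signs. Without suffixed probe sets, 4 of 6 kept genes had opposite genotype signs and 3 of 6 opposite diet signs. Laptm5 had neither at its other probe set, with -0.75 and -0.18 for genotype and -0.73 and -0.16 for diet. For genotype, the other probe set of Csf1r had 0.30 and 0.35, both above 0. That of Msr1, under the filter, had -0.16 and 0.37.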

How the results depend on the processing

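The medians of the members kept their direction under the 9 alternatives, except for diet in ko under median scaling (-0.03). A move is a change larger than the probe-set SD of 0.298, or of a count by over 1.5 times. The median for genotype on FD moved to 0.26 under the stricter filter and with the mean of the probe sets. For genotype on ND, the 1 kept member 2-fold lower became 0 under quantile normalization, median scaling, cyclic loess, the pseudocount and the stricter filter, and 2 with no filter, which adds Marco. With no filter, the count on FD went from 0 to 1 higher, that for diet in wt from 1 to 2 lower and that for diet in ko from 0 to 1 higher, and the stricter filter, which drops Itgax and Msr1, left 0 lower for diet in wt. For the difference of ratios, 3 became 1 under median scaling. Of the single genes, Laptm5 moved with the choice of probe set and Itgax with the pseudocount (-1.01 for diet in wt). The median of all kept genes went from 0.09 to -0.21 for the difference of ratios under median scaling. No paired analysis was possible because each group has 1 array and the labels give no replicate numbers, and no array could be left out. Signals near the floor, as for Marco, limit what these arrays resolve.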

Other observations

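Itgax is carried by dendritic cells as well as macrophages, and the genes of dendritic and antigen-presenting cells did not go one way. Over the 14 on the array, 7 of them kept, the difference of genotype ratios between diets was above 0 for 7 and below 0 for 7, and it was 1.65 for Itgax. The class II gene H2-Aa (-0.998), which had signals of 262.9 and 353.7 in the wt pools (ND first) and 303.8 and 204.6 in the ko pools, H2-Ab1 (-0.84) and Cd74 (-0.52), the invariant chain, were below 0. Batf3, a transcription factor of dendritic cells, had 0.47, and under the filter on signal Zbtb46 (1.56), Xcr1 (1.34) and Cd83 (1.12) were above 0. Cd83 had the order of arrays of Itgax, with 27.2 and 14.3 in wt and 19.3 and 22.0 in ko. Apart from H2-Aa, H2-Ab1 and Cd74, these genes were named after their values were seen.

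Of the 12 neutrophil genes on the array, 10 were above the floor on some array and 2 were kept, Lcn2 and Csf3r. Of the 10, 6 were highest in ko FD and lowest in wt FD, among them Lcn2, with 489.4 and 257.0 in wt and 468.5 and 690.4 in ko, and S100a8, with 19.4 and 8.6 in wt and 17.9 and 37.5 in ko. The other 4 had other orders: Csf3r (109.2 in wt ND and 87.1 in ko FD) and Ly6g were highest in wt ND, Mpo was highest in wt FD and Camp was lowest in ko ND. Lcn2 was the only kept gene of the 6. Among all kept genes, ko FD was the highest array for 29.0% and wt FD the lowest for 36.1%. The share with both was not counted, so the 6 are a description only. S100a8, Ly6g, Mpo and Camp are under the filter, and these genes were named after their values were seen.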
